A study of Caenorhabditis elegans with 2 samples.

Results

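The genes described here make up the cyclic GMP branch of sensory signalling in the nematode Caenorhabditis elegans: the guanylate cyclases, the cyclic nucleotide-gated channel subunits and the cyclic GMP-dependent protein kinases. They were chosen by name. The rule took the protein-coding genes called gcy followed by a number, with odr-1, daf-11, tax-2, tax-4, egl-4, pkg-2, cng-1, cng-2 and cng-3. Of 19973 nuclear protein-coding genes, 40 met that rule. The choice was made with earlier results of these data known. Binding of ZFH-2, a protein with zinc fingers and homeodomains, was mapped by ChIP-seq (sequencing of the DNA that comes down with the protein), and the data are the peaks listed from it. The worms were of strain RW12167, which carries zfh-2::GFP with a floxed unc-119(+) marker, made by CRISPR insertion, in an unc-119(tm4063) III background, and the antibody was against GFP. Whole young adults aged 64.5 hours, grown from starved first-stage larvae, gave 1 group of 2 biological replicates, so no comparison between groups was possible. All cell types of the animal were mixed in the chromatin, and the lists do not say in which cells a peak arose.

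In C. elegans, receptor guanylate cyclases span the membrane of sensory endings, soluble guanylate cyclases bind gases, and both make cyclic GMP. The messenger opens channels built from TAX-4, TAX-2 and related subunits and activates the protein kinase EGL-4. Ciliated neurons use this pathway to sense odours, salts, temperature, oxygen and carbon dioxide, and the kinase also acts in adaptation and in body size.

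A gene was counted as having a peak when a summit of the authors' conservative list lay between 1000 bp upstream of its 5' end and its 3' end. By this count 7 of the 40 genes (17.5%, 95% Wilson interval 8.75 to 31.9%, counting error only) had a summit, against 19.5% of all protein-coding genes. The share was therefore near the background. The 7 genes were the kinase gene egl-4, the channel subunit gene cng-2, the soluble cyclase gene gcy-35 and the receptor cyclase genes gcy-28, gcy-15, gcy-23 and gcy-21. By class, a summit was found at 1 of 2 kinase genes, 1 of 5 channel subunit genes, 1 of 7 soluble cyclase genes and 4 of 26 receptor cyclase genes. Replicate 1's own thresholded list had a summit at 4 of the 40 genes, against 14.0% of all genes, and replicate 2's had one at 6, against 14.7%. Both own lists had one at 4 genes, egl-4, gcy-28, gcy-35 and cng-2, against 11.4% of all genes.

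The 7 genes held 15 summits, 6 of them at egl-4 and 4 at gcy-28, and 1 at each of the other 5. Those 2 genes were the only members of the 40 with 2 or more summits, against 7.61% of all protein-coding genes, and 1.51% of all genes had 4 or more. The median signal of the strongest summit was 155 over the 7 genes and 140.0 over all 3904 genes with a summit. This signal is the authors' own value per peak, on a scale that no source used here states, and it serves only to order peaks within a list. Of the 15 summits 9 lay in introns and 6 in coding exons of the gene itself, and none of the 15 was upstream of the gene's 5' end. The same shares over all summits are not given here, so these positions are not shown to be particular to these genes. At 8 of the 15, the peak overlapped a called peak of both replicates, at 1 of replicate 1 alone, at 3 of replicate 2 alone and at 3 of neither. The same called peak could count for more than 1 summit, as at gcy-28 in replicate 2, so the 8 are not all separate sites. Of all conservative peaks, 48.3% overlapped a called peak of both replicates and 27.9% of neither.

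**Figure D1:**
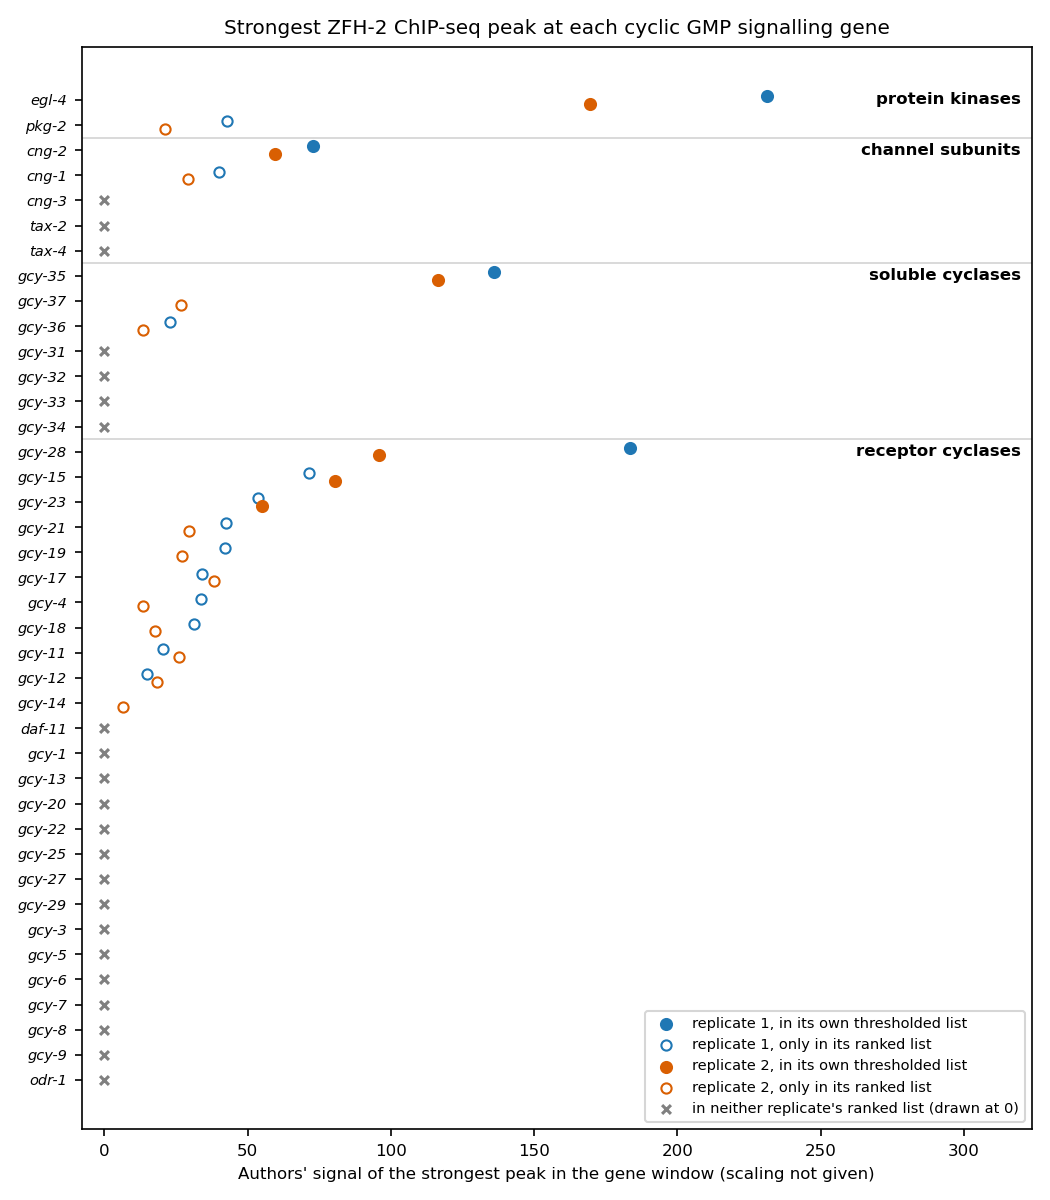
Strongest peak in the gene window of each of the 40 genes in each replicate's ranked list, on the authors' signal scale (x axis, no unit given). Filled points were in that replicate's own thresholded list, open points only in the ranked list, and 22 genes marked with a cross had no entry. The points of egl-4, gcy-28 and gcy-35 lie farthest to the right in both replicates, with egl-4 at 231 in replicate 1 and 169.5 in replicate 2.

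The gene egl-4 (WBGene00001173), which encodes the main cyclic GMP-dependent protein kinase of the worm, had the highest signal among the 40. It spans 1848071 to 1880596 on the plus strand of chromosome IV in build ce11 and has 9 annotated transcripts with 7 different 5' ends. Its strongest summit, at 1858022 in a peak of 581 bp, had a signal of 398 and rank 154 of 7085. In the own lists the nearest summits had signals of 231 (replicate 1, rank 146 of 4281, 2 bp away) and 169.5 (replicate 2, rank 185 of 4696, 38 bp away). Both replicates thus placed it near the top of their lists. The site was intronic, 9951 bp inside the gene, and 535 bp upstream of the 5' end of the shorter transcript F55A8.2c.1.

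A second summit of the same peak lay 199 bp further on, 336 bp upstream of that transcript, with a signal of 199.8 in the conservative list and 108 and 56.9 in the own lists of replicates 1 and 2. The sequence around the strongest summit is printed here because it is the site of highest signal among these genes. It covers chrIV:1857873-1858172 on the plus strand, the strand of the gene, and its capitals mark the bases within 50 bp of the summit. Those bases were 53.5% G or C, and they hold a run of CT repeats, which reads as GAGAGAGA on the other strand.
egl-4 intron summit: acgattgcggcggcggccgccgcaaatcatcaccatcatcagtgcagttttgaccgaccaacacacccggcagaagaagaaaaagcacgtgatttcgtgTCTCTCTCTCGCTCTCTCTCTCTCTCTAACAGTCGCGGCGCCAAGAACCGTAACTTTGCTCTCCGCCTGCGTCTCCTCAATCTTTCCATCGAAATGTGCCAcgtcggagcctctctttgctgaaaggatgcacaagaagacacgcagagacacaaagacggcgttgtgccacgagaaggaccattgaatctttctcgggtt

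The other sequence of egl-4 is that of its first coding exon, the place of the only summit among the 15 that lay in the promoter window of its own gene (1000 bp before to 200 bp after the 5' end). This summit, at 1848109, was 38 bp past the 5' end. Its signal was 204 in the conservative list (rank 1126), 103 in replicate 1 (rank 1400, 31 bp away) and 100.1 in replicate 2 (rank 1085, 22 bp away). Both replicates ranked it in the stronger part of their lists. The printed exon covers chrIV:1848071-1848226 on the plus strand, starts at the start codon, is 62.2% G or C, and has the summit base as its 1 capital.
egl-4 first coding exon: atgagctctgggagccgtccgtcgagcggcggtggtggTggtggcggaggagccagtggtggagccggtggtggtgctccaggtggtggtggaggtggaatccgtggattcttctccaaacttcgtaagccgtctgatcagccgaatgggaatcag

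A weak summit 200 bp downstream of it (signal 31.2, 30.7% GC) lay in the first intron and carried the same score of 1000, although no own summit lay closer than 169 bp (replicate 1) or 178 bp (replicate 2). The last pair of egl-4 summits, in coding exons at 1871109 (signal 79.2, 98 bp downstream of the 5' end of transcript F55A8.2d.1) and 1877457 (signal 77.3), were in neither own thresholded list. In the ranked lists the nearest entries had signals of 41.0 (replicate 1) and 31.9 (replicate 2) at 1871109, and 42.3 (replicate 1) and 45.0 (replicate 2, 162 bp away) at 1877457. The second kinase gene, pkg-2 (WBGene00015650), had no thresholded summit, and its strongest ranked entries had signals of 42.7 in replicate 1 (rank 7979) and 21.1 in replicate 2 (rank 13345).

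Among the channel subunit genes, cng-2 (WBGene00022295, chromosome IV, 2037191 to 2043549, plus strand) alone had a thresholded summit. At 2037692, in the third coding exon and 501 bp downstream of the 5' end, its signal was 129.0 (rank 3068) in the conservative list, 72.7 (rank 2947) in replicate 1 and 59.6 (rank 3235) in replicate 2. The own summits lay 35 and 14 bp away. The ranks lay past the middle of each replicate's list and before the middle of the conservative list. The same summit lay in the promoter window of another gene, Y76B12C.9, 618 bp upstream of its 5' end, and the lists do not say to which gene it belongs. The sequence printed here, chrIV:2037543-2037842 on the plus strand, is the one site at a channel subunit gene that both replicates called. Its capitals mark the bases within 50 bp of the summit, 59.4% of which were G or C.
cng-2 exon summit: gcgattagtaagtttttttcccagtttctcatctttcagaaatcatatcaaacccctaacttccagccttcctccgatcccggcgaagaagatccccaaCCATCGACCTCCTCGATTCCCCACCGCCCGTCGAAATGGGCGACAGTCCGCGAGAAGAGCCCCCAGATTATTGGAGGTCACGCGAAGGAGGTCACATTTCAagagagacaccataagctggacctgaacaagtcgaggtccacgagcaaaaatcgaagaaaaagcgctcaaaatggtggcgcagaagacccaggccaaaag

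The genes of the principal channel subunits had no peak of any kind. Neither tax-4 (WBGene00006526, chromosome III, 9181546 to 9185888), which encodes the alpha-type subunit, nor tax-2 (WBGene00006525, chromosome I, 9020945 to 9025608), which encodes the beta-type subunit, nor cng-3 (WBGene00000563) had an entry in either replicate's ranked list. The nearest conservative summit was 31618 bp from the window of tax-4, 41218 bp from that of tax-2 and 36374 bp from that of cng-3. At cng-1 (WBGene00000562) the strongest ranked entries had signals of 39.9 (replicate 1, rank 8848) and 29.2 (replicate 2, rank 9248).

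**Figure D2:**
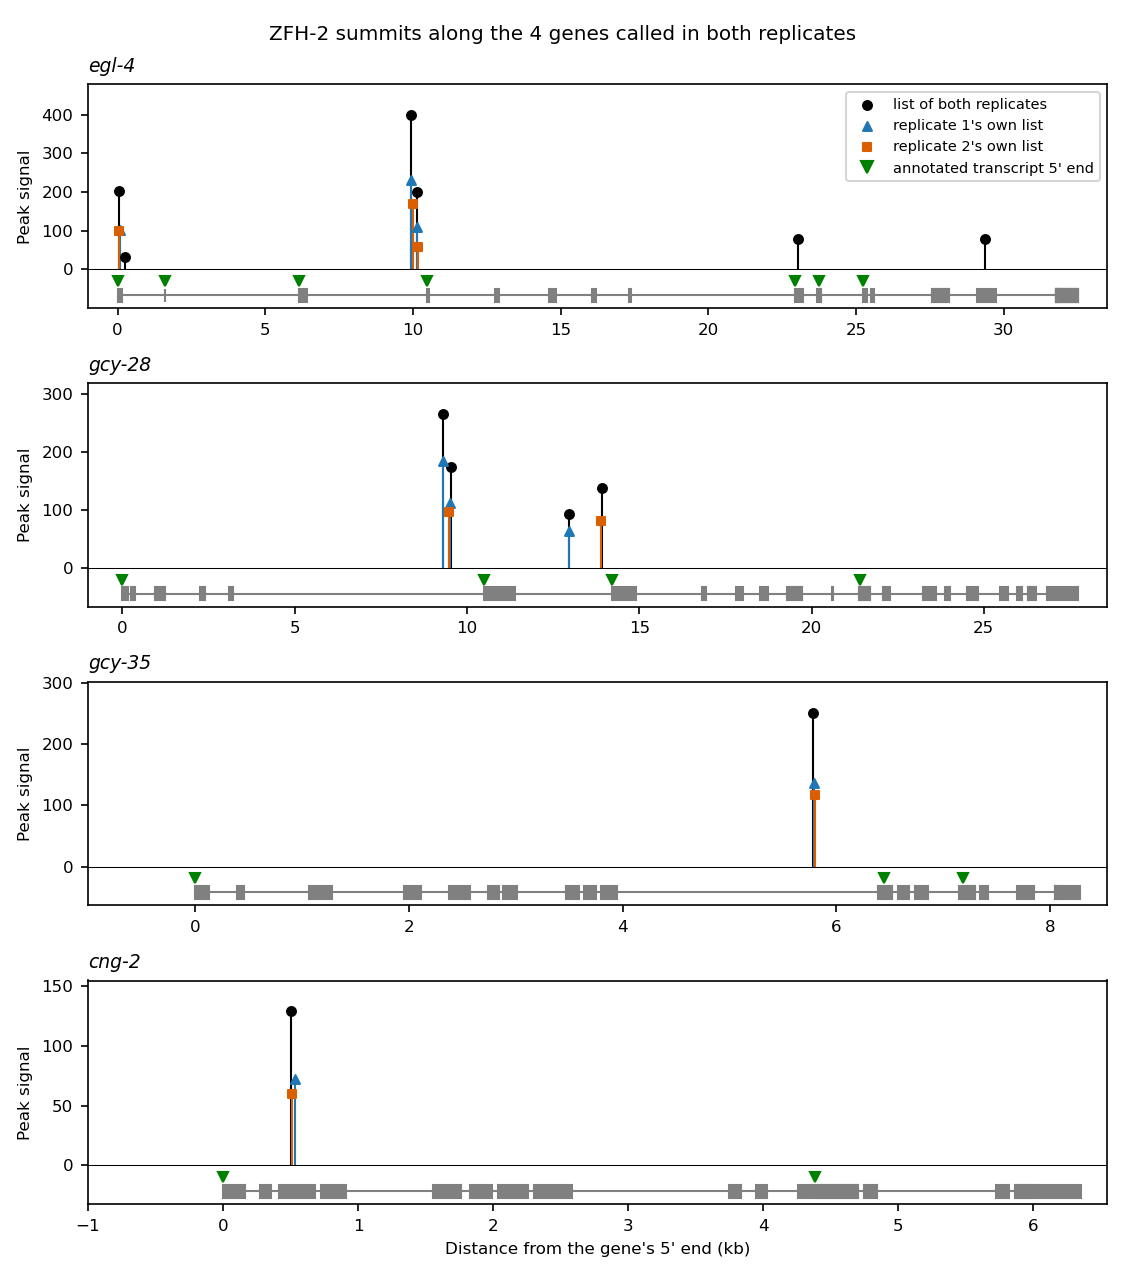
Summits along egl-4, gcy-28, gcy-35 and cng-2, the 4 genes called in both replicates, by distance from the gene's 5' end in kb (x axis) and authors' signal (y axis, scales differ between lists). Grey boxes are exons of all transcripts and green triangles their 5' ends. The strongest summits of egl-4 and gcy-28 lie 9951 and 9315 bp inside the gene, each before the 5' end of a shorter transcript.

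Among the soluble guanylate cyclases, gcy-35 (WBGene00001555, chromosome I, 13325230 to 13333513, plus strand) had a summit in both replicates. Its product senses oxygen together with that of gcy-36 in neurons exposed to the body fluid. The summit at 13331012 had a signal of 252 (rank 621) in the conservative list, 136 (rank 706, 5 bp away) in replicate 1 and 117 (rank 674, 16 bp away) in replicate 2. It ranked high in both own lists, and the positions differed by little. It was intronic, 5782 bp inside the gene and 668 bp upstream of the 5' end of the short transcript T04D3.4b.1. It was also 65 bp upstream of the 5' end of another gene, T04D3.5, so a summit of gcy-35 and a promoter summit of T04D3.5 cannot be told apart. The partner gene gcy-36 had ranked entries of signal 23.0 in replicate 1 and 13.4 in replicate 2. A single replicate, replicate 2, had entries at gcy-37, the strongest with a signal of 26.9. No ranked entry was found at gcy-31 and gcy-33, oxygen sensors of the BAG neurons, or at gcy-32 and gcy-34.

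Among the receptor guanylate cyclases, gcy-28 (WBGene00020131, chromosome I, 4481198 to 4508940, plus strand) had the most summits. This gene is expressed widely in the nervous system, and its window of 28743 bp was the longest after that of egl-4 (33526 bp). Its 4 summits all lay in introns, between 9315 and 13912 bp downstream of the 5' end. The strongest, at 4490513, had a signal of 265 (rank 536) in the conservative list and 184 (rank 306, 1 bp away) in replicate 1. In replicate 2 the peak there had 1 summit, of signal 96.0 (rank 1209), which lay 157 bp from it and 54 bp from the second conservative summit (signal 174, 211 bp from the first). The replicates shared that peak and differed in where its summit lay. The strongest gcy-28 summit had 38.6% GC within 50 bp, and 2.64% of all 7085 summits were below 40%.

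The other gcy-28 summits were each in a single own list. That at 4495110 (signal 138), 282 bp upstream of the 5' end of transcript T01A4.1a.1, had a signal of 81.2 in replicate 2 and a ranked entry of 56.2 in replicate 1. That at 4494161 (signal 92.5) had 62.8 in replicate 1 and a ranked entry of 32.2 in replicate 2. Neither replicate lacked a ranked peak at these sites.

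The remaining receptor cyclase genes with a summit were less alike between the replicates' own lists. At gcy-15 (WBGene00001541, chromosome II, 3192349 to 3197066, minus strand), the summit at 3195977, intronic and 1089 bp inside the gene, had a signal of 155 (rank 2165). Replicate 2 called it with a signal of 80.6, and replicate 1 held it in the ranked list alone, with 71.4. Replicate 2 had a second intronic summit of gcy-15 (signal 56.5) that no conservative peak overlapped. At gcy-23 (WBGene00001548, chromosome IV, 3282885 to 3289337, minus strand), one of the thermoreceptor genes of the AFD neurons, the summit at 3283326 lay in coding exon 9, 6011 bp downstream of the 5' end. Its signal was 109.8 (rank 4049). Replicate 2 called it with 55.1, and the ranked entry of replicate 1 had 53.6. The gcy-23 site was called in replicate 2 alone, and its place in the ranked lists was 5537 in replicate 1 and 3773 in replicate 2. At gcy-21 (WBGene00001546, chromosome II, 2659664 to 2664686, plus strand), the summit at 2662985 in coding exon 10 had a signal of 67.2 (rank 6723) and was in neither own list, with ranked entries of 42.5 in replicate 1 and 29.5 in replicate 2.

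Just inside the authors' threshold was gcy-21, with a −log10 global irreproducible discovery rate (IDR) of 2.0 and a score of 830, the lowest in the conservative list. Just outside it, in the ranked list that compared the replicates, were cng-1 with 1.95, gcy-17 with 1.79, gcy-19 with 1.78 and pkg-2 with 1.52. Of the 40 genes, 9 had entries in both replicates' ranked lists and no thresholded summit, against 17.2% of all protein-coding genes. In all, 11 of the 40 genes had no conservative summit but an entry in a ranked list, against 27.7% of all protein-coding genes: pkg-2, cng-1, gcy-36, gcy-37, gcy-4, gcy-11, gcy-12, gcy-14, gcy-17, gcy-18 and gcy-19. The strongest ranked signal at any of them was 42.7 in replicate 1 (pkg-2) and 38.3 in replicate 2 (gcy-17).

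No ranked entry was found at 22 of the 40 genes, against 52.8% of all protein-coding genes. They include odr-1 and daf-11, receptor cyclases of olfactory and dauer signalling, gcy-8 of the AFD thermoreceptors, gcy-9, the carbon dioxide receptor of the BAG neurons, and gcy-1, gcy-3, gcy-5, gcy-6, gcy-7, gcy-20 and gcy-22, receptor cyclases known from the salt-sensing ASE neurons. Also known from these neurons, gcy-4 and gcy-14 had low-ranked entries, with a strongest signal of 33.7 at gcy-4 and 6.5 at gcy-14. The rest of the 22 were gcy-13, gcy-25, gcy-27 and gcy-29 besides the channel and soluble cyclase genes named above. No source used here says how reads that match more than 1 place were treated, and some gcy genes lie beside close relatives, so a missing peak at such a gene says only that none was listed. Over the 33 genes without a conservative summit, the median distance from the window to the nearest one was 16184 bp, from 349 bp at gcy-19 to 151142 bp at gcy-27, and over all 16069 such protein-coding genes it was 11758 bp. On chromosome V, 0 of 11 of the 40 genes had a conservative summit, against 13.0% of that chromosome's genes, and on the X chromosome 0 of 5 did, against 22.2%. The counts were 2 of 4 on chromosome I (25.8% of all genes there), 2 of 9 on chromosome II (20.5%), 0 of 1 on chromosome III (24.1%) and 3 of 10 on chromosome IV (17.2%).

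The counts were also set beside those of genes alike in window length or base composition. Of the 40 genes, 39 had windows in the longest of 3 equal classes of all protein-coding genes, and 7 of those 39 had a summit, against 32.0% of all genes in that class. No ranked entry was found at 21 of the 39, against 38.8%. Genes were also put into 5 equal classes by the highest GC content found in the window within 50 bp of any base. In the highest class 5 of 8 had a summit, against 63.3% of all genes there. In the next class 2 of 10 had one, against 26.2%. In the lower 3 classes together 0 of 22 did, against 2.74%, made up of 0 of 2 in the lowest (0.175%), 0 of 12 in the second (1.15%) and 0 of 8 in the middle class (6.88%). Thus the counts followed those of all genes by GC class, and in the longest class the share was lower than that of all genes, with no test. Genes with no ranked entry numbered, from the lowest class to the highest, 2 of 2 (95.4% of all genes), 11 of 12 (73.5%), 5 of 8 (49.8%), 3 of 10 (30.6%) and 1 of 8 (14.5%). The median of this highest GC value was 64.4% over the 7 genes with a summit, 54.5% over the 33 without and 55.4% over all protein-coding genes. In the highest class, odr-1 (61.4%), cng-1 (62.4%) and gcy-36 (63.4%) had no conservative summit. The gene gcy-28, with 4 summits, had the same value as odr-1 (61.4%) but fell in the next class, because ties were split by order. The part that GC content plays in the counts was not tested.

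**Figure D3:**
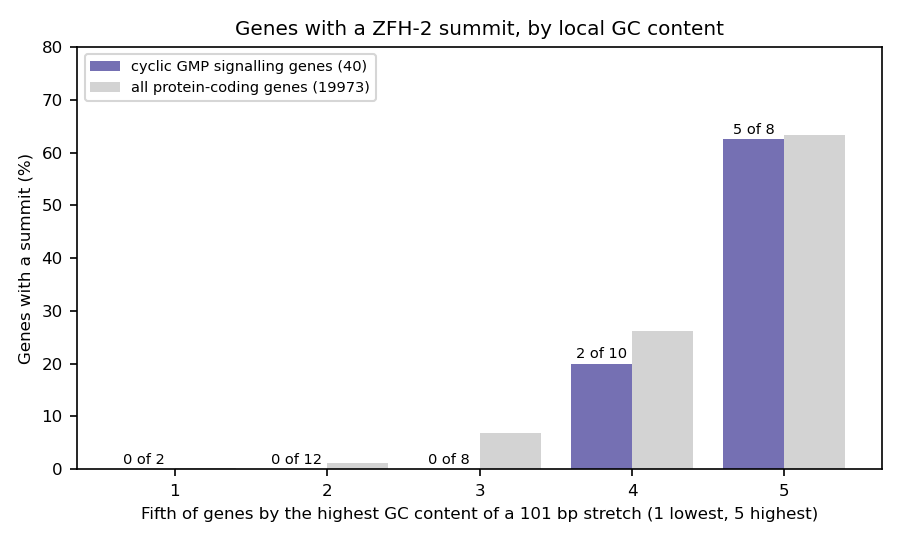
Share of genes with a conservative summit (y axis, percent) in 5 equal classes of the highest GC content near any base of the window (x axis, lowest to highest), for the 40 cyclic GMP signalling genes (left bars, with counts) and all protein-coding genes (right bars). In the highest class 5 of 8 genes had a summit, against 63.3% of all genes, and in the lower 3 classes none of 22 did.

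At the summits themselves the median GC content within 50 bp was 53.5% over the 15, from 30.7 to 66.3%, and 55.4% over all 7085. Of 6 short motifs searched on either strand within 50 bp, GAGAGAGA was found at 2 of the 15 summits (the strongest of egl-4 and that of gcy-28 at 4495110) and at 4.02% of all summits. CAGCTG, an E-box form, was found at the gcy-21 summit and at 6.2% of all. Another E-box form, CACGTG (3.81% of all summits), the homeodomain core TAATTA (0.692%), GAAGCC, the core of the site of the ASE factor CHE-1 (8.33%), and TAATCC, the core of OTX sites (1.68%), were found at 0 of the 15. A match describes the letters only.

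Annotated transcripts with other 5' ends changed the promoter count. With the gene's 5' end alone, 1 of the 40 genes had a summit in its promoter window, against 8.82% of all protein-coding genes. With the 5' ends of all transcripts, a setting chosen after seeing the data, 3 did (egl-4, gcy-28 and gcy-35), against 10.6% of all genes.

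Other genes of the pathway, 58 in number, were counted in the same way. A conservative summit was found at 18 of them (31.0%, 95% Wilson interval 20.6 to 43.8%, counting error only), against the 19.5% of all genes. In the promoter window 8 had one, against 8.82% of all genes. The list was chosen with earlier results of these data known, so the interval is no test of enrichment. Of these 58 genes, 45 were in the longest class of window, where 18 had a summit, against 32.0% of all genes there. In the highest class of GC content 14 of 22 had one, against 63.3%, so the share there was near the background. The highest signal was at eat-16, which encodes a regulator of G protein signalling (signal 518, rank 63, 374 bp upstream of the 5' end; 338 in replicate 1 and 183 in replicate 2). Next were kin-29, a salt-inducible kinase gene that acts in chemoreceptor expression (431, 216 bp upstream; 222 and 207 in replicates 1 and 2), ets-5, an ETS factor gene of the BAG neurons (349, in an intron; 213 and 135), saeg-1, whose product acts with EGL-4 in the nucleus (341, in an intron; 198 and 141), and cmk-1, the calcium/calmodulin-dependent kinase gene (322, 122 bp upstream; 185 and 142). These 5 were in both own lists.

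By group, a summit was found at 4 of 7 calcium and kinase regulators (kin-29, cmk-1 and tir-1 the strongest, then tax-6, the calcineurin A gene), at 5 of 14 identity factors (ets-5, cog-1 with a signal of 163 and lin-11 with 126 the strongest), at 2 of 7 genes downstream of EGL-4 and the cyclases (saeg-1 and mef-2, 229.5), at 2 of 13 G proteins and regulators (eat-16 and the diacylglycerol kinase gene dgk-1, 246), at 2 of 4 other transduction channels (osm-9, a TRPV channel gene, 154, and unc-2, a calcium channel gene, 121), at 1 of 4 oxygen circuit genes (hif-1, 169) and at 0 of 5 trafficking genes. Beside each of these counts, 19.5% of all protein-coding genes had a summit, and the groups are small. In the highest class of GC content 63.3% of all genes had one. That class held 4 of the 7 calcium and kinase regulators, of which 3 had a summit. It also held 2 of the 4 other transduction channels, and 2 had a summit. Of the 14 identity factors it held 8, of which only 3 had a summit, a lower share than the 63.3%, with no test. The cyclic GMP phosphodiesterases, which break the messenger down, had a summit at 2 of 4, against the same 19.5%. At pde-2 it lay 427 bp upstream of the 5' end (signal 135, called with 89.6 in replicate 1 and not in replicate 2), and at pde-3 the strongest of 5 was intronic (102, called with 70.5 in replicate 2 and not in replicate 1). Of the 6 sensory G protein alpha genes on the list (odr-3, gpa-2, gpa-3, gpa-5, gpa-6 and gpa-13), none had a ranked entry, against 52.8% of all protein-coding genes. They were singled out after their values were seen, and their highest GC content, 49.5 to 54.5%, put them in the lower 3 GC classes. Of the 14 identity factors 5 had no ranked entry, against the same 52.8%. They were the CHE-1 gene che-1, the AFD factor gene ttx-1, ceh-36, ahr-1 and unc-86, also named after their values were seen. The highest GC content was 48.5% at che-1, 70.3% at ttx-1, 66.3% at ahr-1, 64.4% at ceh-36 and 61.4% at unc-86. All of these but che-1 were among the 8 identity factors in the highest GC class. In that class 14.5% of all genes had no ranked entry, so missing entries were not rarer there than over all genes, with no test.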

How the data were processed

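ChIP-seq peak lists of 2 biological replicates were used. Per the deposited readme and file names, the authors thresholded or ranked peaks by irreproducible discovery rate in assembly ce11. No source used here names the aligner or peak caller, and a possible control experiment named in the labels was not analysed here. The authors' score follows the logarithm of that rate (1000 at most, 830 at a rate of 0.01), their signal has no stated scaling, and the deposited ranked lists give −log10 of the global rate. Depth is unknown, since the lists carry no counts of reads. Intervals are for counting error alone. The conservative list, made from both replicates, was the main list, without its 2 mitochondrial peaks. The ranked list of both replicates used here is the one that compares them.

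Genes came from Ensembl release 115 (WBcel235, the same assembly as ce11), and sequence from the NCBI RefSeq copy of WBcel235. A summit was the peak start plus the listed offset. A promoter window held 1000 bp before and 200 bp after the 5' end. Ties in GC content were split by order. Window counting was checked on simulated data. Genes named were all 40 members, up to 3 genes of highest signal per pathway list (also tax-6 and genes at 0, chosen after their values were seen) and genes sharing a summit. The first egl-4 exon was also printed after its values were seen. Members and lists were chosen with earlier results of these data known, so no test was made. Of 59 pathway names 58 matched the annotation. Alternatives were merged regions, other windows and overlaps, either replicate alone, peaks of the stronger 50%, and the other thresholded list. Python 3.11.15 was used, with pandas 2.3.3, NumPy 2.4.6, matplotlib 3.10.9 and SciPy 1.17.1.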

Additional observations from a re-analysis of the deposited data

How the results depend on the processing

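The count of genes with a summit was 4 in replicate 1's own list (14.0% of all genes) and 6 in replicate 2's (14.7%). Of the own lists, replicate 2's alone held gcy-15 and gcy-23. The count was 6 in the authors' other thresholded list (19.7%) and 5 in the stronger 50% of peaks (12.4%). In the other settings tried it stayed at 7, while the share of all genes went from 17.5% (500 bp upstream) to 23.0% (2000 bp upstream). The promoter count was 1 in either own list, against 6.47% (replicate 1) and 6.23% (replicate 2) of all genes. It rose to 4 with the nearest 5' end within 5 kb (cng-2, egl-4, gcy-11 and gcy-15), where the share of all genes was 19.2% in place of 8.82%. With all transcripts' 5' ends it rose to 3 (10.6% of all genes). Summits at the 40 genes numbered 15 in the conservative list, 9 in the stronger 50% and 8 to 10 in the own lists. The count of pathway genes was 17 in replicate 1's own list (14.0% of all genes) and 15 in replicate 2's (14.7%). It was 21 in the other thresholded list (19.7%) and 15 in the stronger 50% of peaks (12.4%). With 500 bp upstream it was 18 (17.5%), and with 2000 bp upstream 20 (23.0%). Any of the 6 motifs was at 3 summits within 50 bp, at 0 within 25 bp and at 4 within 100 bp. Within 100 bp, CACGTG (6.63% of all summits) and GAAGCC (15.1%) were each at 1 summit, of egl-4. At gcy-21 the summit was lost in the other thresholded list, the stronger 50% and both own lists. No paired analysis was possible because there is 1 group. Read depth, a control library and further replicates, none of which was analysed here, limit all of these counts.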
